A study of Mus musculus with 35 samples.

Results

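Fatty acid oxidation genes were followed in macrophages sorted from mouse liver. The set was given as a list of 35 symbols for enzymes and regulators of mitochondrial and peroxisomal β-oxidation, and a symbol was kept when it was present in the count files and exceeded 1 CPM (reads of the gene scaled to a library of 1000000 reads) in at least 5 of the 35 samples. All 35 symbols met both conditions, out of 54735 symbols in the files and 13421 genes that passed the same limit. The list was not built from the contrasts described here, although the pathway was proposed with earlier results of these data known.

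Bulk RNA-seq libraries came from 6 groups of wild-type C57BL/6J mice, none of which carried a transgene or a deleted allele. Male mice were placed at 5 weeks of age on a standard diet (SD) or on a Western diet (WD), which is rich in fat, sugar and cholesterol and came with water sweetened by fructose and sucrose. Resident Kupffer cells (ResKCs, CLEC4F+TIM4+ liver macrophages) were sorted after 12 weeks on SD (n = 7), 12 weeks on WD (n = 5), 24 weeks on SD (n = 6) and 24 weeks on WD (n = 6). From livers kept on WD for 24 weeks, monocyte-derived Kupffer cells (moKCs, CLEC4F+TIM4-, n = 5) and macrophages without CLEC4F (CLEC4F- macs, n = 6) were also sorted. No SD libraries of moKCs or CLEC4F- macs were analysed here, so the diet comparison covers ResKCs only. For the 5 libraries of WD ResKCs at 12 weeks the diet tag says SD but both the title and the description say WD, and the latter was used here. The study counts n in animals, but no label ties a library to a mouse, and the p-values measure the spread between these samples.

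Mean RNA levels of the gate markers followed the sorting, although Clec4f RNA was also present in CLEC4F- macs. In WD ResKCs at 24 weeks Clec4f averaged 12607 CPM with an SD of 1577 (n = 6), against 1716 ± 1890 (n = 6) in CLEC4F- macs, with 1 CLEC4F- library as high as 5482 CPM. Timd4, which encodes TIM4, averaged 731 CPM ± 116 in those ResKCs, 12.5 ± 11.5 in moKCs (n = 5) and 8.23 ± 4 in CLEC4F- macs. Libraries held 11568590 to 15163845 counted reads, and no pair of libraries of the same group agreed within sampling noise. Hepatocyte RNA was detected in every library: the summed level of 20 hepatocyte genes ranged from 616 to 5534 CPM in SD ResKCs and from 1512 to 5277 CPM in WD ResKCs at 12 weeks, from 711 to 2178 CPM and from 1537 to 5044 CPM at 24 weeks, from 2087 to 4454 CPM in moKCs and from 1168 to 4636 CPM in CLEC4F- macs. None of these 20 genes was at 0 in any group. In bulk libraries, fewer cells of a type and less RNA per cell cannot be told apart.

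β-oxidation shortens fatty acids by repeated removal of acetyl-CoA. A fatty acid is first joined to coenzyme A by an acyl-CoA synthetase (ACSL), and long-chain acyl groups then enter mitochondria through the carnitine shuttle, with CPT1A at the outer membrane and CPT2 inside. Acyl-CoA dehydrogenases, hydratases, hydroxyacyl-CoA dehydrogenases and thiolases carry out the cycle in turn, and electrons from the first step pass through the electron transfer flavoprotein (ETFA, ETFB) and its dehydrogenase (ETFDH). Peroxisomes run a parallel pathway for very long and branched chains. Many of these genes are targets of the fatty acid receptor PPARα, the product of Ppara, whose best-studied site of action is the hepatocyte.

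Among the members, 2 pairs of genes on the list are near-identical copies, and their sequences decide how far single reads can separate them. Acot1 and Acot2, neighbours on mouse chromosome 12 (mm10, chr12:84009490-84018371 and chr12:83987861-83993873, both on the plus strand), encode cytosolic and mitochondrial acyl-CoA thioesterases. Their coding sequences were identical at 95.55% of 1236 aligned bases, and 26.4% of the 75-base stretches of the Acot1 transcript also occurred in another gene, mostly Acot2. Acaa1a and Acaa1b on chromosome 9 (mm10, chr9:119339676-119350299, plus strand, and chr9:119148023-119157093, minus strand) encode peroxisomal thiolases with 96.54% identity over 1272 coding bases, and 37.8% of the stretches of Acaa1b were shared with other genes. Of 1158 aligned windows of 75 coding bases in Acot1 and Acot2, 434 held no difference. For Acaa1a and Acaa1b these were 358 of 1198 windows, and reads from the remaining windows can tell the copies apart. The stretches of 75 coding bases at which each pair differs most are shown 5′ to 3′. Capitals mark the bases at which the copies differ, 14 in the first pair and 11 in the second.
Acot1: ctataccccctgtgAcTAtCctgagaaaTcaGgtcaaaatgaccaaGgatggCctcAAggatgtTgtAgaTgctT
Acot2: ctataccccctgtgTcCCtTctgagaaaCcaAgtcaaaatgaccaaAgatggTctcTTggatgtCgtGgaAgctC
Acaa1a: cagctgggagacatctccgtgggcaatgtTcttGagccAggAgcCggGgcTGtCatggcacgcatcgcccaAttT
Acaa1b: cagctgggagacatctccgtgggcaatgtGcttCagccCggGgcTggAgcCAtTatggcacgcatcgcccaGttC
Reads from the shared stretches could be lost or assigned to either copy, so the split between Acot1 and Acot2 and between Acaa1a and Acaa1b is less certain than for the other members. Shared stretches also covered 57.2% of the Hadhb transcript and 66.3% of the Etfb transcript, in both cases with sequences annotated as separate genes (Gm13910 and Gm9108, and Gm45233). For 18 members no 75-base stretch was shared with another gene.

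Promoter windows from RefSeq (GRCm38.p6, 250 bases before to 50 bases after the start) were found for 32 of the 35 members. The receptor half-site AGGTCA was searched on both strands, as was its direct repeat with 1 base of any kind (N) between the copies, the classical PPAR element. The half-site occurred in 4 of 32 members (12.5%: Acadm, Acadvl, Cpt1a and Echs1), against 18.1% of 27025 genes, and the full repeat occurred in 0 members and in 0.0481% of genes. A match of this kind describes letters in the window and not a bound site. The upstream 250 bases are shown for Cpt1a (GRCm38.p6, chr19:3323051-3323300, plus strand) and for Acaa1b (chr9:119157094-119157343, minus strand). Cpt1a is a carnitine shuttle gene whose values did not overlap between WD ResKCs and CLEC4F- macs. Acaa1b is the thiolase gene with a large diet difference. The half-site is in capitals, on the reverse strand in Cpt1a, and none lies in the Acaa1b stretch.
Cpt1a: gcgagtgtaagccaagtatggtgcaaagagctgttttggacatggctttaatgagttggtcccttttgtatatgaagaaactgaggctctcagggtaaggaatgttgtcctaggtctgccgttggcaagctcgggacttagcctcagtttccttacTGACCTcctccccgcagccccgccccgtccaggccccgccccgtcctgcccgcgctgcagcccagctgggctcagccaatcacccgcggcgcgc
Acaa1b: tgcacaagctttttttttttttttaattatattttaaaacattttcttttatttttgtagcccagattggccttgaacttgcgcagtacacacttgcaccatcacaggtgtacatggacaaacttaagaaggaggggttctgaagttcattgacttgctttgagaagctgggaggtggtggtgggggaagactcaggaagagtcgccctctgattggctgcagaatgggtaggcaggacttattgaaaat

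Levels between genes were compared as mean CPM per kilobase of the principal transcript. Hsd17b4, the multifunctional enzyme of peroxisomal β-oxidation, was the highest member in each of the 6 groups, from 127 CPM per kb in CLEC4F- macs to 168 in WD ResKCs at 24 weeks. It was followed in the mean over groups by the mitochondrial thiolase Acaa2 (74.5), the dienoyl-CoA isomerase Ech1 (71.8), Cpt1a (63.6) and the acyl-CoA synthetase Acsl5 (63.5). Cpt1a and Acsl5 stood at similar levels in each group, 70.9 and 64.8 CPM per kb in WD ResKCs at 24 weeks and 45.3 and 41.2 in CLEC4F- macs. Of the chain-length-specific acyl-CoA dehydrogenases, Acadl (52.4) was above Acadm (28.1), Acads (25.6) and Acadvl (16.1). At the low end stood Pex11a (4.15), Acsl3 (3.29), Acad10 (1.36) and Ppara (0.997). Ppara was the one member with libraries under 1 CPM: 6 of 7 SD ResKC libraries at 12 weeks and 4 of 6 at 24 weeks, so it passed the limit through the WD groups and had to differ between some groups. Summed over the 35 members, the mean level ran from 977 CPM per kb in SD ResKCs at 24 weeks to 1154 in WD ResKCs at 24 weeks, a description without a test.

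**Figure D1:**
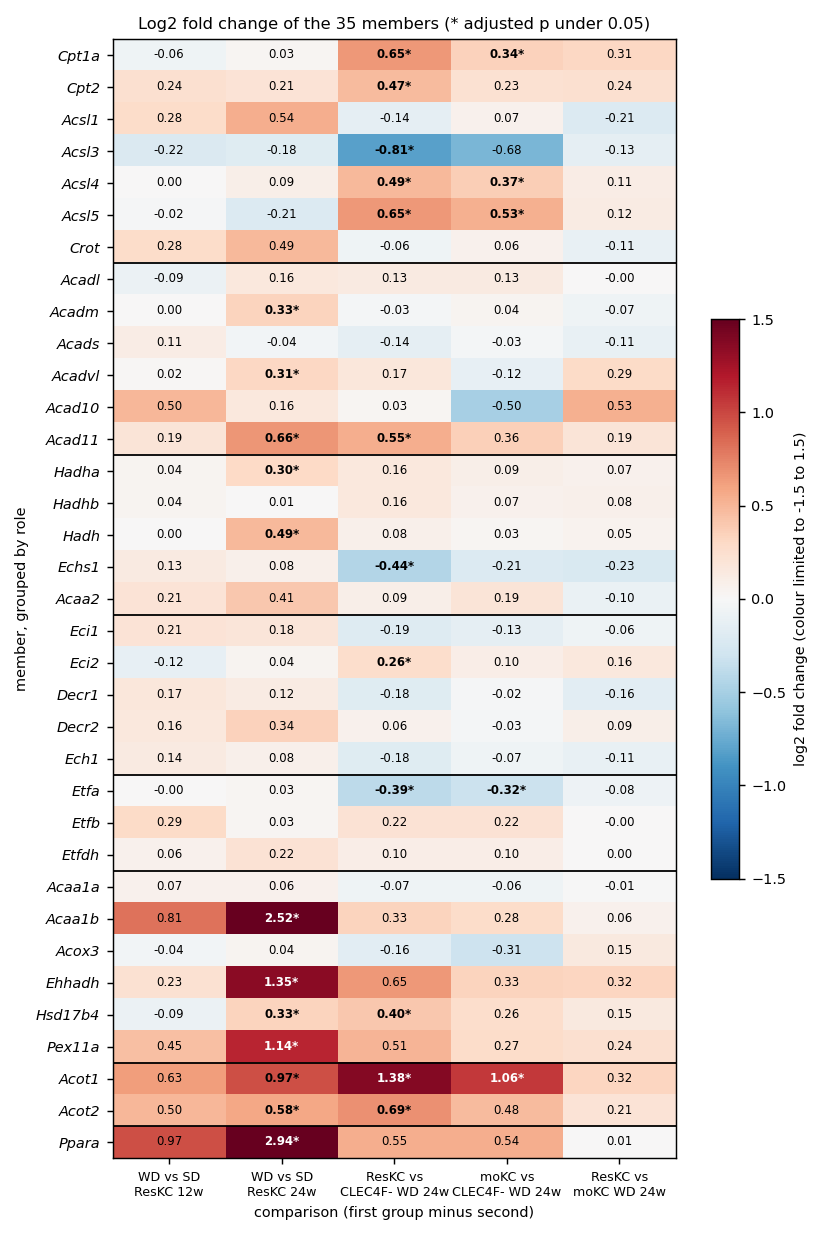
Log2 fold changes of the 35 members (rows, grouped by role and divided by lines) in 5 comparisons (columns, first group minus second). Cells give the value and the colour scale is limited to -1.5 to 1.5. An asterisk marks an adjusted p under 0.05 by edgeR. Asterisks stand in 12 cells for diet at 24 weeks, 12 for ResKCs against CLEC4F- macs, 5 for moKCs against CLEC4F- macs and none in the other 2 columns.

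To ask how the diet altered the pathway in ResKCs, WD and SD libraries were compared at each time. At 24 weeks 12 members were higher on WD and 0 were lower (edgeR quasi-likelihood test, adjusted p under 0.05 over 13421 genes). The background was 4.84% of all genes higher and 3.87% lower, whereas 34.3% of the members were higher. Without Ppara, which passed the limit on low values through the WD groups, 11 of 34 members were higher. The largest differences were in Ppara, in 3 peroxisomal genes (Acaa1b, Ehhadh and Pex11a) and in the thioesterase gene Acot1. The members grouped here as mitochondrial differed by 0.66 (Acad11) or less on the log2 scale. Without TMM factors, that is by library size alone, all genes split into 1139 higher and 340 lower, and the members into 14 higher and 0 lower. The median log2 fold change was 0.21 over the members and 0.004 over all genes, and 32 of 35 members had a positive value. By role, the members called higher were 1 of 1 regulator, 4 of 6 peroxisomal genes, 2 of 2 thioesterases, 3 of 6 acyl-CoA dehydrogenases and 2 of 5 genes of the later mitochondrial steps. Of 7 genes for activation and entry, 5 auxiliary isomerases and reductases, and 3 electron transfer genes, none was called. Crot was counted with activation and entry and Decr2 with the auxiliary genes, not with the peroxisomal genes (edgeR adjusted p = 0.0796 and 0.137). Acad11 was counted with the acyl-CoA dehydrogenases, and its compartment was not examined.

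Ppara encodes the receptor itself. SD ResKCs at 24 weeks held 0.158, 0.804 and 1.22 CPM (lowest, median and highest), which are 2 to 17 reads a library, and WD ResKCs held 2.75, 4.15 and 13.6 CPM, or 38 to 177 reads. Every WD library was above every SD library. The fitted log2 fold change was 2.94. Since the gene passed the limit on low values through the WD groups, this value and its later calls are a description. The highest value, from replicate 3 on WD, was separated from the next one at 6.69 CPM.

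Pex11a encodes a peroxisomal membrane protein that takes part in peroxisome division. It measured 3.61, 5.55 and 9.44 CPM on SD and 7.25, 12.3 and 19.9 CPM on WD (lowest, median and highest), with overlap at the edges. The log2 fold change was 1.14 (SE 0.28, adjusted p = 0.011, edgeR).

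Acaa1b, the peroxisomal thiolase that releases acetyl-CoA in the last step, measured 2.31, 13.8 and 22.5 CPM on SD and 22, 75.9 and 127 CPM on WD. The lowest WD library, replicate 1, lay just under the highest SD library. The log2 fold change was 2.52 (SE 0.65, adjusted p = 0.0139, edgeR). Its copy Acaa1a was level, with means of 82.3 CPM ± 9.08 on SD and 85.7 ± 9.61 on WD (SD, n = 6 each).

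Ehhadh, the peroxisomal bifunctional enzyme, averaged 13.1 CPM ± 3.24 on SD and 33.5 ± 15 on WD, a log2 fold change of 1.35 (SE 0.36, adjusted p = 0.016). Hsd17b4, the other multifunctional enzyme, had separated groups of 313 to 382 CPM on SD and 388 to 519 CPM on WD, but a smaller fold change of 0.33 (adjusted p = 0.0443). Acox3, a peroxisomal acyl-CoA oxidase, had means of 50.3 CPM ± 3.27 on SD and 51.8 ± 6.23 on WD. The log2 values of the peroxisomal enzymes thus ran from 2.52 for Acaa1b to 0.06 for Acaa1a and 0.04 for Acox3.

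The thioesterase genes Acot1 and Acot2, whose products release free fatty acids from coenzyme A, were both higher on WD. Acot1 averaged 24.1 CPM ± 10.1 on SD and 47.1 ± 9.85 on WD, with a log2 fold change of 0.97 (SE 0.29, adjusted p = 0.0329). Acot2 averaged 16.8 CPM ± 3.77 and 25.1 ± 4.59, with 0.58 (SE 0.17, adjusted p = 0.0246). Among mitochondrial genes, Hadha, the α subunit of the trifunctional protein, averaged 98.5 CPM ± 9.07 on SD and 121 ± 14.6 on WD, a log2 fold change of 0.30 (SE 0.08, adjusted p = 0.0199). Its partner Hadhb, which encodes the β subunit, had a log2 value of 0.01, with 81.8 CPM ± 7.53 and 82.2 ± 7.18. Acad11, an acyl-CoA dehydrogenase for longer chains that was grouped with these genes, differed by 0.66 (SE 0.19, adjusted p = 0.0255, edgeR). Hadh, Acadvl and Acadm, for short-chain hydroxyacyl-CoA, very-long-chain and medium-chain dehydrogenases, were called with log2 values of 0.49, 0.31 and 0.33, and Acadm lay at the threshold (adjusted p = 0.0499).

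None of the 7 genes for activation and entry was called between the diets. Cpt1a, the rate-controlling step of mitochondrial import, measured 269 to 331 CPM on SD and 273 to 344 CPM on WD at 24 weeks, with a log2 fold change of 0.03. Acsl1, the main synthetase of oxidative tissues, averaged 44.3 CPM ± 4.69 on SD and 64.3 ± 21.7 on WD (log2 0.54, not called). Acsl5 had a mean of 317 CPM ± 15.9 on SD and 275 ± 12.7 on WD, and although the 6 WD libraries (256 to 293 CPM) lay under the 6 SD libraries (297 to 338 CPM), it was not called (log2 -0.21, adjusted p = 0.0832).

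**Figure D2:**
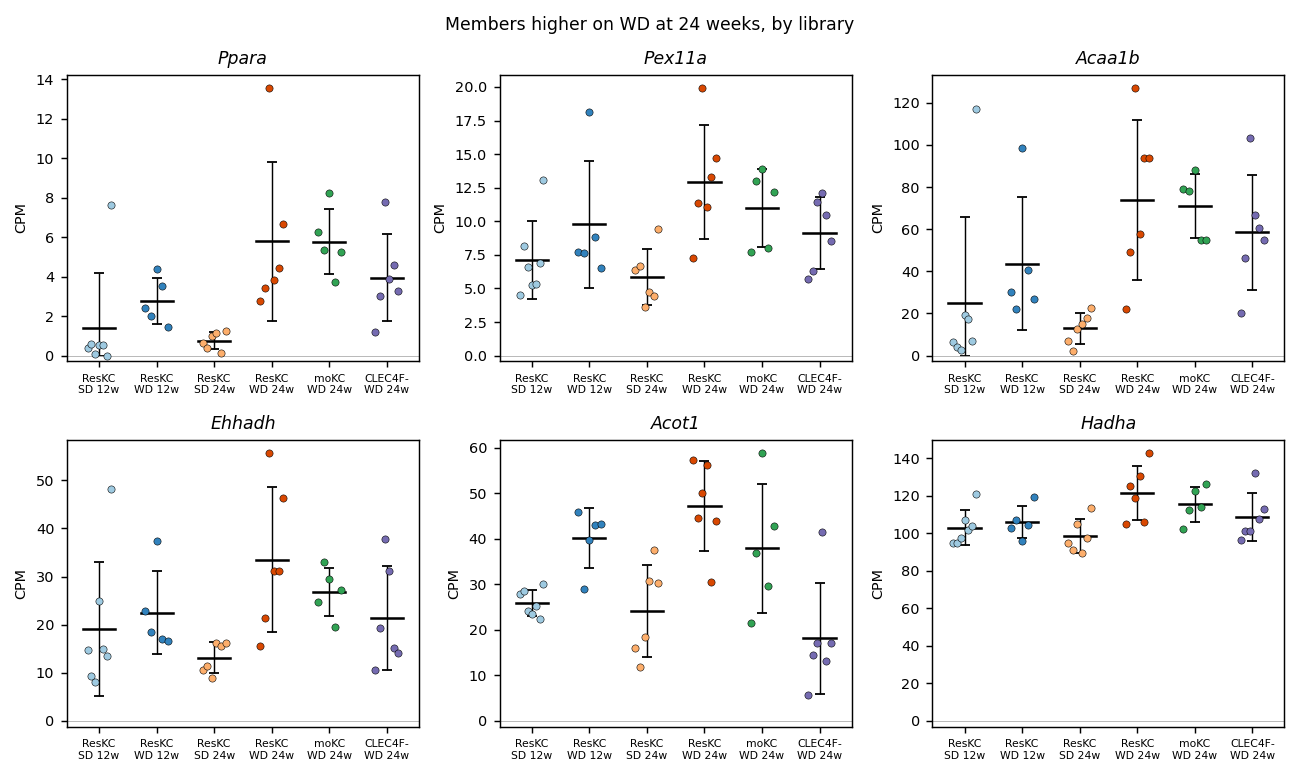
CPM of 6 members (y axes) in each library (points) of the 6 groups (x axis), with the mean as a thick line and 1 SD as error bars, whose lower ends stop at 0. Ppara, Pex11a, Acaa1b and Ehhadh are low in the 6 SD libraries at 24 weeks and spread widely in the 6 WD libraries, while Hadha differs by a smaller step. The single high point among SD libraries at 12 weeks for Ppara (7.65 CPM), Acaa1b (117 CPM) and Ehhadh (48.2 CPM) is replicate 7.

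The 24-week calls depended on the samples and the model. Leaving out single SD libraries left 6, 5, 8, 7, 9 and 7 members called (replicates 1 to 6), and leaving out single WD libraries left 10, 10, 7, 8, 10 and 5. Over all genes these 12 fits gave 464 to 646 higher and 364 to 562 lower. Ppara, Pex11a, Acaa1b and Ehhadh were called in each of these 12 fits, with the highest adjusted p among them at 0.0489 for Ehhadh. The names of the alignment files in the count headers follow 2 schemes, whose meaning is not given in the sources used here. The 6 SD libraries at 24 weeks share 1 scheme with 3 of the 6 WD libraries. With the scheme as a covariate 4 members were higher (Ppara, Pex11a, Acaa1b and Ehhadh) and 1 was lower (Acsl5, log2 -0.26), beside 445 and 452 of all genes. Within the shared scheme 2 were higher, Ppara with a log2 fold change of 3.11 and Acaa1b with 2.34. All genes there were 277 higher and 224 lower.

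Genes of the immediate-early and heat-shock response, which can be induced while cells are isolated, moved with the diet. Of 10 such genes, 7 were lower on WD at 24 weeks, and those of lowest p were Dusp1 (log2 -2.09), Fos (-2.24) and Egr1 (-2.22). Their summed level was 2583 to 13808 CPM (median 8853) on SD and 1049 to 4939 CPM (median 1950) on WD. With the mean log2 CPM of this list as a covariate 0 of 35 members were called, and over all genes the calls went from 650 higher and 519 lower to 242 and 227. The log2 fold changes fell to 1.85 for Ppara, 1.57 for Acaa1b (edgeR adjusted p = 0.208), 0.77 for Ehhadh (0.266) and 0.73 for Pex11a (0.167). Hsd17b4 fell to 0.16, Acadm to 0.16, Hadh to 0.30 and Acad11 to 0.47, while Acadvl was level at 0.32. The score itself differed by diet, with a mean of 8.75 ± 0.96 on SD and 7.02 ± 0.80 on WD (SD). The fit therefore cannot separate the score from the diet. The part of this response in the diet difference was not tested beyond that fit.

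Hepatocytes express the whole pathway at high levels, so hepatocyte RNA was examined beside the members. At 24 weeks Alb averaged 425 CPM ± 153 on SD and 651 ± 281 on WD (log2 0.61, adjusted p = 0.338), and Apoa1 averaged 134 ± 54.4 and 250 ± 134 (log2 0.90, adjusted p = 0.197). Of the 20 hepatocyte genes, 2 were called higher on WD (Cyp3a11 and Cyp2e1) and 0 lower, with a median log2 fold change of 0.78. Within groups, the member with the steepest slope on the hepatocyte score (the mean log2 CPM of the 20 genes) was Acaa1b. Its slope was 1.28 ± 0.10 (SE) in log2 per unit of score. Next among the members by size of slope were Ppara (1.24 ± 0.16), Ehhadh (0.59 ± 0.08) and Acsl1 (0.46 ± 0.04). Alb itself had a slope of 0.84 and Apoa1 of 0.98, although both belong to the score. Acot2 (-0.03), Hsd17b4 (0.00), Hadha (0.03), Cpt1a (0.04) and Acot1 (0.08) were near the median of all genes (-0.01).

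With the score as a covariate, 7 of the 12 diet calls at 24 weeks were kept, and over all genes 599 were higher and 501 lower. Acaa1b fell from 2.52 to 1.57 (adjusted p = 0.000482), Ppara from 2.94 to 1.86, Ehhadh from 1.35 to 0.78 (0.0341) and Pex11a from 1.14 to 0.85 (0.043), while Hadha, Acot1 and Acot2 remained at 0.27, 0.92 and 0.61. Hsd17b4 was no longer called although its log2 value stayed at 0.33 (adjusted p = 0.0617). Hadh (0.29), Acadvl (0.18), Acadm (0.21) and Acad11 (0.42) had smaller values and were not called, with adjusted p-values from 0.0751 for Acad11 to 0.17 for Acadvl. Without the 5 libraries of the highest score, 9 members were called, among them Ppara (2.49), Acaa1b (2.30), Ehhadh (1.15) and Pex11a (0.97). All genes in that fit were 637 higher and 472 lower. With the hepatocyte and immediate-early scores together, Acaa1b was the single member called (log2 1.23, adjusted p = 0.0134), beside 290 genes higher and 228 lower.

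Markers of other cells were also counted at 24 weeks (WD against SD ResKCs), beside 4.84% of all genes higher and 3.87% lower. Lower on WD were 2 of 6 macrophage genes (Lyz2 and C1qa), 1 of 6 Kupffer cell genes (Id3), 1 of 6 sinusoidal endothelial genes (Dnase1l3), 1 of 6 stellate cell genes (Dcn) and 1 of 4 B cell genes (Cd79b). Higher were 1 of 3 T and NK cell genes (Trac) and 1 of 4 dendritic cell genes (Clec9a). None of 5 monocyte, 2 neutrophil and 1 cholangiocyte genes tested was called, and the part of these cells in the members' values was not tested.

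Ratios of reads within a library gave a second view. Per 100 Alb reads, Acaa1b had 1.34 to 4.17 reads (median 2.61) on SD and 5.62 to 16.3 (median 11) on WD at 24 weeks, with no overlap (two-sided exact permutation test on log2 ratios, p = 0.00216, the smallest that 6 against 6 allows, adjusted p = 0.00866 over 16 ratio tests). Ppara had 0.0341 to 0.227 reads on SD and 0.468 to 1.29 on WD, given as a description. Per 100 Apoa1 reads both genes were also separated by diet at 24 weeks, Acaa1b at 4.13 to 15 reads on SD and 17.1 to 42.5 on WD. At 12 weeks none of the 8 ratios passed, with the groups overlapping for Acaa1b per 100 Alb reads (1.56 to 10.7 on SD and 2.73 to 9.99 on WD, exact permutation p = 0.0505, adjusted p = 0.115). Ehhadh and Acsl1 were not separated at 24 weeks, with exact permutation p-values of 0.0693 and 0.639 per Alb and 0.24 and 0.212 per Apoa1 (adjusted 0.139, 0.73, 0.296 and 0.283). The ratios were chosen after values of these genes had been seen. A higher share of Acaa1b and Ppara reads per albumin read on WD at 24 weeks was thus measured, while whether those reads came from macrophages or from hepatocytes was not tested.

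**Figure D3:**
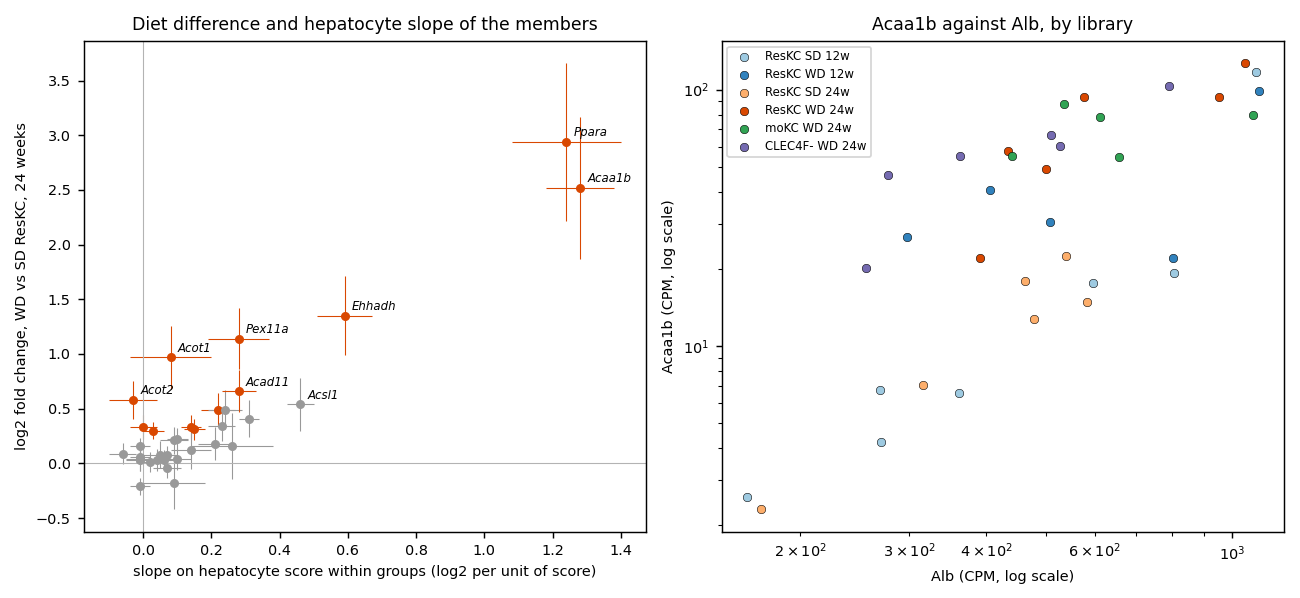
Left, the log2 fold change of each member for WD against SD ResKCs at 24 weeks (y axis) plotted against its slope on the hepatocyte score within groups (x axis), with bars of 1 SE and orange for members called at 24 weeks. Ppara and Acaa1b combine the largest diet values (2.94 and 2.52) with the steepest slopes (1.24 and 1.28), while Acot1 and Acot2 lie near a slope of 0. Right, Acaa1b against Alb by library on log axes, where the 6 WD ResKC libraries at 24 weeks hold more Acaa1b for their Alb than the 6 SD libraries (5.62 to 16.3 against 1.34 to 4.17 reads per 100 Alb reads).

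At 12 weeks 0 members were called in either direction (edgeR; background 0.0149% of genes higher and 0.0224% lower), with 3 members at an unadjusted p under 0.05 and 0 called by DESeq2 or limma-voom. Acot1 measured 45.9, 28.9, 39.8, 43.1 and 43.1 CPM in the 5 WD libraries and 22.5 to 30.1 CPM on SD (log2 0.63, adjusted p = 0.54). Acot2 had a log2 value of 0.50 (adjusted p = 0.377). Acaa1b was 4.21 to 19.3 CPM in 5 SD libraries, 2.58 in another and 117 in replicate 7, against 30.4, 22, 98.8, 40.5 and 26.7 CPM on WD. Replicate 7 also had the highest hepatocyte score of the 35 libraries (7.66). Without it, 2 members were called, Acaa1b at 4.59-fold (adjusted p = 0.0257, edgeR) and Ppara at 7.59-fold, beside 71 of all genes higher and 13 lower. The 5 WD libraries share 1 naming scheme with SD replicates 1 to 3, while SD replicates 4 to 7 follow the other. Acaa1b had a log2 value of 0.81 in the main fit and 1.45 with the scheme as a covariate (adjusted p = 0.49, edgeR). Within the shared scheme it was 3.29 (adjusted p = 0.065, edgeR). Both scheme fits called 0 members, beside 3 and 12 of all genes higher and 0 lower.

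Whether the diet difference itself changed between 12 and 24 weeks was tested as an interaction. No member was called (edgeR; 0 by DESeq2 and limma-voom, 6 at an unadjusted p under 0.05; background 0.0671% higher and 0.216% lower), so the larger values at 24 weeks were not shown to differ from those at 12 weeks. The interaction values were 1.97 for Ppara, 1.71 for Acaa1b, 1.12 for Ehhadh and 0.10 for Cpt1a. SD ResKCs at 24 weeks against 12 weeks also gave 0 called members, with 2 at an unadjusted p under 0.05 and a background of 0% in each direction by edgeR.

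To ask how the pathway differed between macrophage subsets of the same diet, WD ResKCs and CLEC4F- macs were compared at 24 weeks. Of the members, 9 were higher and 3 lower in ResKCs (edgeR, adjusted p under 0.05). These were 25.7% and 8.57% of the members, beside a background of 17% and 16.1% of all genes. In both directions together, 12 of 35 members and 4433 of 13421 genes were called. The members were thus called about as often as all genes. With library size alone the split of the members was 7 higher and 7 lower, that of all genes was 1631 and 3257, and the median over all genes moved from -0.02 to -0.14. Of the 7 genes for activation and entry (Acsl1, Acsl3, Acsl4, Acsl5, Cpt1a, Cpt2 and Crot), 4 were higher and 1 lower. The other 7 called members lay in other roles. The WD ResKC libraries are the same as those in the diet comparison, so both sets of values share samples.

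Acsl5 joins fatty acids to coenzyme A at mitochondrial and reticulum membranes. It measured 256, 275 and 293 CPM in ResKCs (lowest, median and highest) and 142, 168 and 224 CPM in CLEC4F- macs, without overlap. The log2 fold change was 0.65 (SE 0.08, adjusted p = 3.41e-08, edgeR).

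Cpt1a measured 273, 299 and 344 CPM in ResKCs and 160, 198 and 231 CPM in CLEC4F- macs, again without overlap. The log2 fold change was 0.65 (SE 0.10, adjusted p = 2.39e-06, edgeR). Cpt2, the inner carnitine palmitoyltransferase, averaged 48.2 CPM ± 6.6 and 34.7 ± 4.99 (log2 0.47, SE 0.12, adjusted p = 0.00214).

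Acsl4, a synthetase that prefers arachidonic acid, measured 109, 137 and 141 CPM in ResKCs and 74.7, 91.4 and 119 CPM in CLEC4F- macs. The groups overlapped because CLEC4F- replicate 4 exceeded the 2 lowest ResKC libraries. The log2 fold change was 0.49 (SE 0.10, adjusted p = 0.000147). Acsl3, the synthetase linked to lipid droplets, went the other way with 10.8 CPM ± 4.43 in ResKCs and 18.9 ± 3.45 in CLEC4F- macs (log2 -0.81, adjusted p = 0.00779), so the synthetase family was split between the subsets.

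Both thioesterase genes were higher in ResKCs. Acot1 averaged 47.1 CPM ± 9.85 against 18.2 ± 12.2 (log2 1.38, SE 0.29, adjusted p = 0.000373), and 1 CLEC4F- library, replicate 4, stood at 41.5 CPM with the next at 17.1. Acot2 averaged 25.1 CPM ± 4.59 against 15.5 ± 2.37 (log2 0.69, SE 0.17, adjusted p = 0.00136).

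Etfa, the α subunit of the electron transfer flavoprotein, was lower in ResKCs at 73 CPM ± 9.32 against 96 ± 7.92 (log2 -0.39, SE 0.09, adjusted p = 0.000585), while Etfb and Etfdh were not called. Echs1, the short-chain enoyl-CoA hydratase, was lower at 78.4 CPM ± 8.8 against 107 ± 12.1 (log2 -0.44, adjusted p = 0.00508). In both genes the 2 groups did not overlap. Hsd17b4 was higher (450 CPM ± 50 against 340 ± 78.4, log2 0.40, SE 0.11, adjusted p = 0.00289), and Acad11 and Eci2, an enoyl-CoA isomerase, were called with log2 values of 0.55 and 0.26. The enzymes of the central mitochondrial cycle were otherwise level: Acadm had a log2 value of -0.03, Acadvl 0.17, Hadha 0.16, Hadhb 0.16 and Acaa2 0.09, none of them called. Acaa1b (0.33), Ehhadh (0.65) and Ppara (0.55) were not called either.

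Of the 12 calls, 10 held in each fit that left out 1 library of either group. Acad11 was called in 8 of these 12 fits and Eci2 in 4. The count of calls in these fits ran from 10 to 14, beside 1929 to 2412 of all genes higher and 1851 to 2202 lower. With the hepatocyte score as a covariate 9 members were again higher and 3 lower, beside 2329 and 2223 of 13421 genes. With the immediate-early score the members were 7 and 4, beside 2151 and 1936 of all genes. Within the first naming scheme (3 libraries a group) 7 were higher and 2 lower, beside 1834 and 1786 of all genes. Within the second (3 a group) 2 were higher, Cpt1a and Acsl5, and 1 was lower, Etfa, beside 1016 and 654 of all genes. The hepatocyte list had 1 of 20 genes called between these subsets (Trf, higher in ResKCs), and the immediate-early list 3 of 10, all lower in ResKCs. B cell, T and NK cell and monocyte genes were lower in ResKCs (4 of 4, 3 of 3 and 3 of 5 tested), and their part in the values was not tested. Of the Kupffer cell genes 5 of 6 were higher and 0 lower, of the macrophage genes 4 of 6 higher and 1 lower, and of the endothelial genes 1 of 6 higher (Stab2), while 3 of 6 stellate cell genes and 1 of 4 dendritic cell genes were lower. No neutrophil or cholangiocyte gene was called. The background for these lists was 17% of all genes higher and 16.1% lower. Summed levels were 9.85 to 28.4 and 28.2 to 163 CPM for 4 B cell genes and 87 to 147 and 357 to 1361 CPM for 5 monocyte genes, in ResKCs and CLEC4F- macs.

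**Figure D4:**
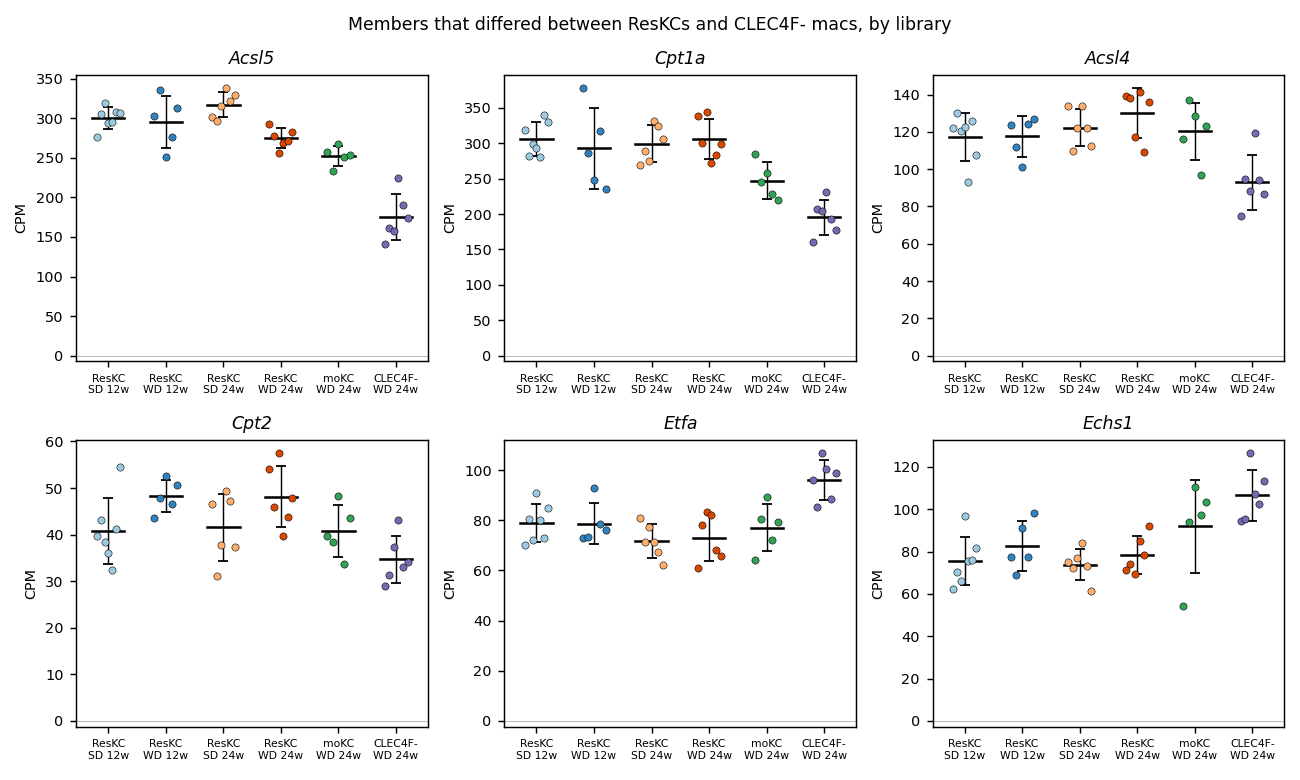
CPM of 6 members (y axes) in each library (points) of the 6 groups (x axis), with the mean as a thick line and 1 SD as error bars. Acsl5 and Cpt1a are lowest in the 6 CLEC4F- libraries (142 to 224 and 160 to 231 CPM) and intermediate in moKCs, while Etfa and Echs1 are highest there. The 4 ResKC groups lie close together for Cpt1a, between means of 293 and 306 CPM.

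The moKCs, which share CLEC4F with ResKCs, were compared with both other WD populations. Against CLEC4F- macs, moKCs had 4 members higher and 1 lower (edgeR, 11.4% and 2.86%, beside a background of 9.34% and 7.09%). In both directions together, 5 of 35 members and 2204 of 13421 genes were called, a similar share. With library size alone the split was 3 higher and 3 lower for the members and 940 and 1477 for all genes. Acsl5 measured 258, 233, 267, 252 and 253 CPM in the 5 moKC libraries, above the CLEC4F- range of 142 to 224 (log2 0.53, SE 0.08, adjusted p = 1.04e-05). Acsl4 measured 116, 137, 128, 96.7 and 123 CPM (log2 0.37, SE 0.10, adjusted p = 0.00831). Acot1 measured 21.5, 36.8, 58.8, 29.6 and 42.8 CPM, a wide range that overlapped CLEC4F- macs through replicate 4 of that group (log2 1.06, SE 0.30, adjusted p = 0.0132). Cpt1a (0.34, SE 0.10, adjusted p = 0.0169) was also higher, and Etfa was lower (-0.32, SE 0.09, adjusted p = 0.0144).

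Single libraries mattered here. Without CLEC4F- replicate 4, 9 members were called (6 higher and 3 lower). Over all genes the calls also rose, from 1253 higher and 951 lower to 1489 and 1103. Without moKC replicate 1, Cpt1a and Etfa lost their calls (highest adjusted p of 0.0809 and 0.0673 in fits that left out a library). Without moKC replicate 3 Acot1 lost its call (0.0687), and without CLEC4F- replicate 1 Cpt1a did. Acsl5 and Acsl4 were called in each of the 11 fits. Within the first naming scheme 2 were higher and 1 lower, beside 1008 and 726 of all genes. Within the second 1, Acsl5, was higher, beside 192 genes higher and 133 lower.

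Between ResKCs and moKCs on WD, 0 members were called by edgeR, DESeq2 or limma-voom, with 2 at an unadjusted p under 0.05, beside a background of 2% of genes higher and 0.991% lower. Those 2 were Cpt1a, at 306 CPM ± 28.9 in ResKCs and 247 ± 26.1 in moKCs (log2 0.31, SE 0.10, adjusted p = 0.0907), and Acadvl, at 40.1 ± 6.9 and 32.8 ± 0.996 (log2 0.29, adjusted p = 0.129). Ppara was nearly equal, at 5.79 CPM ± 4.04 and 5.76 ± 1.65, as was Acaa1b, at 74 ± 37.9 and 71 ± 15.3. Without moKC replicate 1, 2 members were called: Cpt1a (log2 0.37, adjusted p = 0.0453) was higher and Echs1 (log2 -0.37, adjusted p = 0.0482) was lower in ResKCs. All genes in that fit were 336 higher and 191 lower. For Cpt1a the order of means was thus ResKC, moKC and CLEC4F- macs, with the first step short of the threshold and the others past it.

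Genes next to the list in the same pathways gave a wider view, from lists chosen with earlier results known. The diet background at 24 weeks was 4.84% of all genes higher and 3.87% lower on WD. At 24 weeks, 4 of 10 tested genes for fatty acid uptake, binding and activation were higher in WD than in SD ResKCs and 0 lower, including the scavenger receptor Cd36 (log2 1.19, SE 0.17, adjusted p = 4.07e-05) and the binding proteins Fabp5 (1.48) and Fabp4 (1.79). Of 14 further peroxisomal genes, 4 were higher, among them the transporter Abcd3 (0.49) and the oxidase Acox2 (2.12), and 1, Nudt19, was lower (-0.35). Of 14 further mitochondrial genes, 0 were higher and 2 lower (Mcee, -0.42, and Acadsb, -0.34). Among the ketone body genes Bdh1 was higher (2.12). Among PPAR targets 3 of 8 were higher, Angptl4 (2.18), Plin2 (0.80) and Vnn1 (3.36). Fatty acid synthesis, the opposite pathway, also had 3 of 8 genes higher, Fasn (0.95), Scd1 (1.30) and Scd2 (0.58). None of 8 PPAR regulators other than Ppara and none of 3 carnitine shuttle genes was called.

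In ResKCs against CLEC4F- macs the neighbouring genes were counted beside a background of 17% of all genes higher and 16.1% lower. A single call in a list of 8 or 10 genes is not above that share. Of the 14 further peroxisomal genes 8 were higher and 0 lower, among them Pex5 (log2 0.65) and Nudt19 (0.59). Of the 14 further mitochondrial genes 6 were higher and 0 lower, among them Mlycd (0.59), Acsf2 (0.58) and Mcee (0.45). The carnitine transporter Slc22a5 (0.47) and Crat (0.29) were higher, out of 3 tested. The uptake list went mostly the other way, with 1 of 10 higher and 4 lower, among them Fabp5 (-3.16) and Acss1 (-2.50). Among the PPAR regulators Rxra (1.17) and Ppargc1b (0.82) were higher and Pparg (-1.17) was lower. Plin2 was the single PPAR target called (-0.59), Acly the single synthesis gene (1.12), and 0 of 5 ketone body genes were called.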

How the data were processed

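RNA of sorted liver macrophages was sequenced as single 75-base reads in 35 libraries of 6 groups. Per the study's methods and the submitters' processing notes, the authors mapped reads to mm10 with HISAT2 (2.2.0) and deposited raw read counts per gene from featureCounts (2.0.0). Whether counting used strand is not given in the sources used here. The 13421 genes with more than 1 CPM in 5 or more libraries were scaled by TMM and fitted in 1 edgeR (4.0.16) quasi-likelihood model with a mean for each group, in R 4.3.3. P-values were adjusted by the Benjamini-Hochberg method over all genes, and a call needed an adjusted p under 0.05, whatever the fold change. Printed log2 fold changes are model coefficients, and the SE is their size divided by the square root of F. Depth was 11568590 to 15163845 counts a library, so 3 reads correspond to under 0.3 CPM, and the precision of low genes is limited by counting. The study's methods used limma, which was run here as an alternative (limma 3.58.1), as was DESeq2 (1.42.0). Other alternatives were no filter, no TMM factors, the compared groups alone, the replicate number as a block, a fold limit, each library left out, and covariates for hepatocyte genes, immediate-early genes and the naming of the alignment files. The code was tested on simulated data. Transcripts and positions came from GENCODE M21.

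In each comparison, full statistics are given for at most the 8 called members of lowest p and sample values for the lowest 3, and Cpt1a, Ppara, Acadm, Acadvl, Hadha, Ehhadh, Acaa1a, Acaa1b, Acot1, Acot2 and Acsl1 were followed throughout. From the other lists (neighbouring pathways and cell type markers) up to 3 called genes are named. Some called genes of these lists are not reported here. The members and lists were chosen with earlier results of these data known. Replicate numbers were not taken to pair the samples, which needed a correlation of deviations above 0.1 in every same-numbered pair. No comparison met this, although 4 of 6 pairs did for ResKCs against CLEC4F- macs.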

Additional observations from a re-analysis of the deposited data

Results flagged for a closer look

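Among 210 pairs of a member and a group, 23 held a library far from the others by Dixon's test at 95% (11%), where chance flags about 1 in 20. Replicate 7 of the SD ResKCs at 12 weeks gave 7 of these: Acaa1b 117 CPM, Acsl1 128, Acaa2 164, Crot 93.4, Ehhadh 48.2, Pex11a 13.1 and Ppara 7.65, each the highest of its group. Replicate 3 of the WD ResKCs at 12 weeks gave 9, also the highest of its group: Acaa1b 98.8 CPM, Acsl1 115, Acaa2 151, Crot 114, Decr2 53.2, Eci1 39.5, Etfa 92.6, Acsl3 18 and Pex11a 18.1. These libraries had the highest hepatocyte scores of their groups (7.66 and 7.42), and the part of hepatocyte RNA in the values was not tested library by library.

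The other 7 were spread over the groups. In WD ResKCs at 24 weeks Ppara reached 13.6 CPM in replicate 3, whose hepatocyte score was also the highest there (7.42), and Acadvl reached 53.2 CPM in replicate 5. Acot1 was 41.5 CPM in replicate 4 of the CLEC4F- macs, where Acads was lowest at 42.8 CPM. Acadl was lowest in moKC replicate 1 (86.7 CPM). Decr1 was lowest in replicate 3 of SD ResKCs at 24 weeks (10.2 CPM) and Acsl3 in replicate 6 of SD ResKCs at 12 weeks (11 CPM).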

How the results depend on the processing

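For diet at 24 weeks (12 members called), the count was 4 with a fold limit of 1 on the log2 scale, 7 with the hepatocyte covariate, 0 with the immediate-early and heat-shock covariate, 5 with the naming covariate, 2 within the first naming scheme, 1 with both score covariates, and 5 to 10 with a library left out. For diet at 12 weeks (0), it was 1 (Ppara) without the 5 libraries of the highest hepatocyte score, and 0 to 2 with a library left out. The fit without those 5 libraries had 34 of all genes higher and 6 lower. For ResKCs against CLEC4F- macs (12), it was 1 (Acot1) with the fold limit, 3 within the second naming scheme, and 10 to 14 with a library left out. For moKCs against CLEC4F- macs (5), it was 1 (Acot1) with the fold limit, 3 with the compared groups alone, 8 with DESeq2, 3 and 1 within the first and second naming schemes, and 4 to 9 with a library left out. All genes there were 803 higher and 808 lower with the compared groups alone, and 1301 and 1066 with DESeq2. With a library left out they were 939 to 1489 higher and 677 to 1103 lower. For ResKCs against moKCs (0), it was 1 (Acadvl) with the hepatocyte covariate, 1 with both score covariates, and 0 to 2 with a library left out. Calls over all genes were 277 higher and 154 lower with the hepatocyte covariate, and 260 and 136 with both. With a library left out they were 153 to 336 higher and 72 to 191 lower. The other alternatives left these counts within 1.5 times, no named member reversed its direction while called, and the remaining 2 comparisons stayed at 0 under each alternative. With the replicate number as a block, although the rule for pairing was not met, the counts were 2 at 12 weeks (Acaa1b and Ppara), 13 at 24 weeks, 13, 0 and 5 for the subset comparisons in the order ResKC against CLEC4F-, ResKC against moKC and moKC against CLEC4F-, and 0 for the others. The block was 1 factor across all 6 groups, so it was not a paired test of any single comparison. Over all genes it gave 74 higher and 12 lower at 12 weeks, and 752 and 530 at 24 weeks. For the subset comparisons, in the order named, it gave 2318 and 2171, 248 and 124, and 1251 and 933. In ResKCs against CLEC4F- macs 5 of 6 samples correlated best with their own number, and the main test took them as unpaired. Alternatives within naming schemes, with both scores, and without the 5 libraries were chosen after seeing the data, and the cause of each shift was not tested. Smaller alternatives hold fewer samples. Calls with the fold limit were counted for the members alone and not over all genes. At this depth low genes such as Ppara rest on few reads in SD libraries.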
